A study of Mus musculus with 18 samples.

Results

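Dermal fibroblasts that carried transcripts of at least 3 of the genes Cxcl1, Il6, Ptgs2 and Has1 were examined in single-cell RNA sequencing libraries of mouse dorsal dermis collected around the clock. A barcode was taken as a fibroblast when it held 850 to 7800 genes, less than 13% mitochondrial counts, 20 or more unique molecular identifiers (UMIs) of Col1a1, Col1a2 and Col3a1 together, at least 1 UMI of Pdgfra and 0 UMIs of Ptprc. A fibroblast was called inflammatory when at least 3 of the 4 rule genes were present at 2 or more UMIs each. Of 23990 deposited barcodes, 16877 passed the quality filter, 12119 were fibroblasts and 1234 of these (10.2%) were inflammatory. The other 10885 fibroblasts served as the comparison within each library. Because the 4 rule genes were themselves used to choose the cells, levels of any gene in inflammatory against other fibroblasts are given as a description without a test. Gene levels in the inflammatory fibroblasts were tested only for rhythm over the day.

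The mice were wild-type male C57BL/6J animals kept on a light-dark cycle, with skin taken as young adults while the hair follicles rested. The 18 libraries came from 1 mouse each, with 3 mice at each of zeitgeber time (ZT, hours after lights on) ZT2, ZT6, ZT10, ZT14, ZT18 and ZT22. All groups were the same in genotype, sex and treatment, and differed only in the time and day of collection. The skin of every mouse was digested with collagenase at 37 °C for 1.5 h and live cells were sorted before droplet capture, so what cells did in the skin and what they did during digestion cannot be told apart.

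Fibroblasts are the matrix-producing cells of the dermis, and they also act as sentinels. When they sense interleukin-1, tumour necrosis factor or microbial products through NF-kB and AP-1 transcription factors, they release chemokines that call in neutrophils and monocytes. Cxcl1 encodes a neutrophil chemokine, Il6 a cytokine of the acute response, Ptgs2 the inducible cyclooxygenase that starts prostaglandin synthesis, and Has1 a hyaluronan synthase. Ccl2, a monocyte chemokine, and Cxcl10, an interferon-inducible chemokine for T cells, were further markers of these cells that the rule did not use.

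The 250 bases upstream of the RefSeq start of 4 of these genes are shown because each holds letters of at least 1 of the motifs searched. The sequences are from RefSeq on the mouse build GRCm38.p6, and 5 of the 6 genes looked for were in the promoter table. Both strands were searched for the kappaB consensus of NF-kB, AP-1 (TGANTCA), the cyclic AMP response element (CRE, TGACGTCA) and the interferon-stimulated response element (ISRE, GAAANNGAAA). Capitals mark every match, and overlapping matches were merged.
Cxcl1: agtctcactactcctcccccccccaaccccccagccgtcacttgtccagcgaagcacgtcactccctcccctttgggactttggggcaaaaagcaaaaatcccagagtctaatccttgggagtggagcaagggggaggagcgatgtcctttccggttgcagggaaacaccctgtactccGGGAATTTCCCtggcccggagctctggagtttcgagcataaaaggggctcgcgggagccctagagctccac
Il6: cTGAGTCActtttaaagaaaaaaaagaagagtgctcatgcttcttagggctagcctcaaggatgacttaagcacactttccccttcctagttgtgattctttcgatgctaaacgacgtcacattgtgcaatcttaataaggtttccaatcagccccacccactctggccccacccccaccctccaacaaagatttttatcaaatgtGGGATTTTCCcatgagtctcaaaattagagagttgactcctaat
Has1: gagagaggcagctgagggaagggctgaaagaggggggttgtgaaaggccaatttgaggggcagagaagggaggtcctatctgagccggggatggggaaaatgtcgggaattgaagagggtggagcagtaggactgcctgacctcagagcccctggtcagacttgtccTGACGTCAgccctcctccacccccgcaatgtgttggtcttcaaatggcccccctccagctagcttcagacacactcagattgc
Cxcl10: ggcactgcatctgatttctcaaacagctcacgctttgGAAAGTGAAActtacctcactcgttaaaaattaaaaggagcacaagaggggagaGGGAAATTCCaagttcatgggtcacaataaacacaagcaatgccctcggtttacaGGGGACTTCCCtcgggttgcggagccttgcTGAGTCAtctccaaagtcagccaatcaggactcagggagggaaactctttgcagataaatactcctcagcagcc
The Cxcl1 window lies at chr5:90890995-90891244 on the plus strand, with kappaB letters between 71 and 61 bases before the start. The Il6 window lies at chr5:30012864-30013113 on the plus strand, with kappaB letters 44 to 35 bases and AP-1 letters 249 to 243 bases before the start. The Has1 window, chr17:17855189-17855438 on the minus strand, held CRE letters 83 to 76 bases before the start. The Cxcl10 window, chr5:92348890-92349139 on the minus strand, held kappaB letters at 159 to 150 and at 104 to 94 bases, AP-1 letters at 74 to 68 bases and ISRE letters at 213 to 204 bases before the start. The Ptgs2 window, chr1:150099781-150100030 on the plus strand, held none of these letters. A match describes letters in a window and not a bound site. Among all 32851 promoters of the table, 7.25% held kappaB letters, 6.75% AP-1, 1.55% CRE and 2.98% ISRE letters.

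Inflammatory fibroblasts were found in every library, from 2 cells in ZT18 replicate 1 to 207 cells in ZT2 replicate 3, with a median of 54.5. The libraries themselves held 4850221 UMIs (ZT18 replicate 1) to 40827442 UMIs (ZT2 replicate 3). The median inflammatory fibroblast held 26366.5 UMIs and 4785 genes, against 21654 UMIs and 4479 genes in the other fibroblasts. The median UMI number was higher in the inflammatory fibroblasts of 18 of 18 libraries, and a cell with more UMIs more easily reaches a rule of 2 UMIs. The median mitochondrial share was 1.87% against 2.25%. Cells with over 6000 genes, which could include pairs of cells, made up 5.92% of inflammatory fibroblasts (73 cells) and 1.68% of the others.

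As a share of fibroblasts, inflammatory cells were 5.35, 13.5 and 13.9% in the 3 mice at ZT2, and 7.18, 6.15 and 7.65% at ZT6. At ZT10 the shares were 15.7, 13.8 and 8.31%, and at ZT14 they were 12.98, 4.43 and 9.25%. At ZT18 they were 1.89, 15.6 and 5.61%, and at ZT22 they were 14.7, 8.65 and 8.73%. The ZT6 mice lay closest together, below those of ZT10 and ZT22, while the ranges of the other times overlapped. ZT14 replicate 1 had many cells with over 6000 genes, without which 12 of its 34 inflammatory fibroblasts remained and its share was 6.03%. The widest spread was at ZT18, where replicate 1 had 2 inflammatory cells among 106 fibroblasts (exact Clopper-Pearson 95% interval 0.229 to 6.65%, which covers counting error only) and replicate 2 had 53 among 339.

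The mean shares ± SD (n = 3 mice) were 10.9% ± 4.81 at ZT2, 6.99% ± 0.769 at ZT6, 12.6% ± 3.84 at ZT10, 8.89% ± 4.29 at ZT14, 7.71% ± 7.11 at ZT18 and 10.7% ± 3.46 at ZT22. No difference between times was detected by a permutation test of the F statistic over the 6 times (p = 0.589, 100000 draws). A permutation test of a 24 h cosine gave p = 0.803, with a fitted peak-to-trough difference of 0.35 on the log2 scale and a fitted peak at ZT5.56. Neither was stable: the difference was 0.10 with the peak at ZT17.2 for 2 of the 4 genes, 0.12 with the peak at ZT19.4 without ZT18 replicate 1, and 0.63 without ZT18 replicate 2. When every fibroblast was thinned to 10000 UMIs, 691 of 11072 cells (6.24%) met the rule, with 0.990 to 10.6% per library, and the thinned means followed in the order 6.09, 4.09, 7.65, 4.52, 4.40 and 6.88% from ZT2 to ZT22 (permutation test, p = 0.588). Thinning left out 20 inflammatory and 1027 other fibroblasts that were shallower than 10000 UMIs. Each alternative rule, from 2 of the 4 genes (3116 cells, permutation p = 0.502) to all 4 genes (339 cells, permutation p = 0.716), stayed above 0.05. The smallest permutation p of the F statistic over the libraries left out in turn was 0.100, without ZT18 replicate 2.

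**Figure D1:**
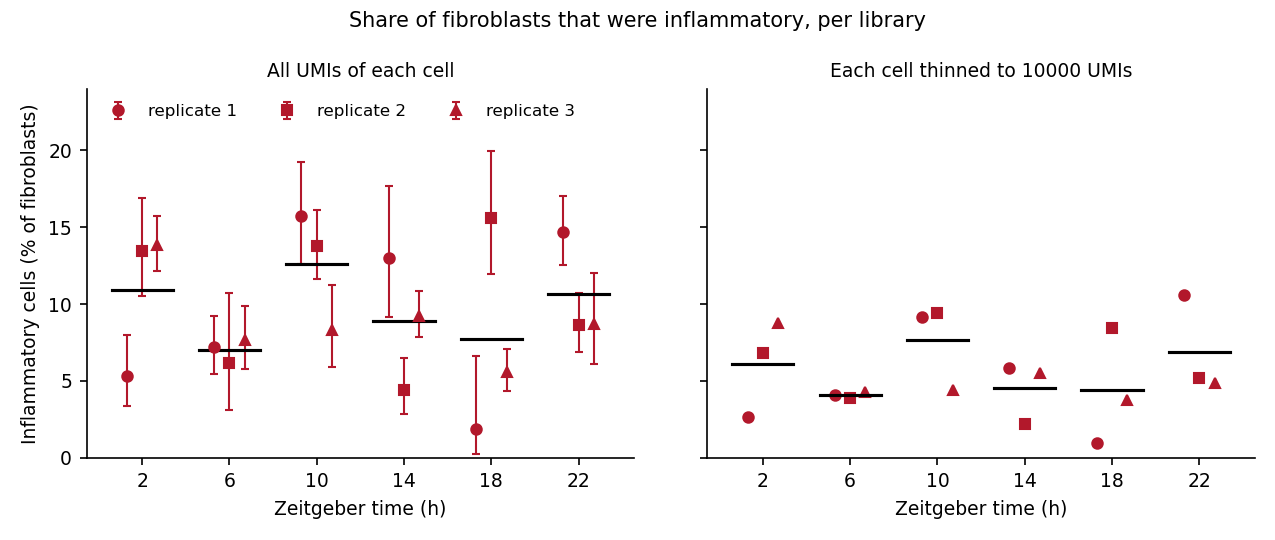
Percentage of fibroblasts that were inflammatory (y axis) against zeitgeber time in hours (x axis), with 1 point per library, its shape giving the replicate number, and a black line for the mean of 3 mice. Error bars are exact 95% binomial intervals on all UMIs, and the other panel shows the shares after thinning to 10000 UMIs. The 3 mice of a time were often as far apart as the times, as at ZT18, where the shares ran from 1.89 to 15.6%.

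The share was also set against 7 other measures of the same 18 libraries, and none was related to it after adjustment. Pearson's r with the percentage of barcodes that carried the leukocyte gene Ptprc was 0.37 (permutation p = 0.123, adjusted p = 0.216) and Spearman's rho was 0.38 (permutation p = 0.116, adjusted p = 0.272). Within replicate numbers 1, 2 and 3, which are the days of collection, this r was 0.52, 0.04 and 0.91 (6 libraries each, exact permutation p = 0.297, 0.988 and 0.0208), and without the 2 libraries farthest from the median it was 0.28. Values of r within days were computed for all 7 measures, and their exact p-values were not adjusted. The level of the AP-1 and immediate early genes in the other fibroblasts had r = 0.32 (permutation p = 0.191, adjusted p = 0.268) and rho = 0.40. The median UMI number per fibroblast had r = -0.03 (permutation p = 0.920, adjusted p = 0.920), the median mitochondrial share r = -0.38 (permutation p = 0.124, adjusted p = 0.216), and the log2 number of fibroblasts r = 0.42 (permutation p = 0.0842, adjusted p = 0.216), which rested on ZT18 replicate 1: without that library r was 0.08. The level of the interleukin-1 beta gene Il1b in leukocytes had r = 0.18 (permutation p = 0.472, adjusted p = 0.550), and 0.03 without ZT18 replicate 1 and 0.06 without ZT14 replicate 1. The summed level of the 4 rule genes in leukocytes had r = -0.48 (permutation p = 0.0487, adjusted p = 0.216), which turned to 0.16 without ZT18 replicate 1.

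Among the 4 rule genes, Cxcl1 with Ptgs2 and Has1 was the most common combination, in 476 inflammatory fibroblasts (38.6%). All 4 genes were present in 339 cells (27.5%), Cxcl1 with Il6 and Has1 in 233 (18.9%), Cxcl1 with Il6 and Ptgs2 in 93 (7.54%) and Il6 with Ptgs2 and Has1 in 93. Il6 was the gene most often missing. The median inflammatory fibroblast held 15 UMIs of Cxcl1, 3 of Il6, 7 of Ptgs2 and 12 of Has1, and single cells reached 1014, 293, 563 and 297 UMIs.

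At least 1 UMI of Cxcl1 was present in 93.8% of inflammatory and 27.5% of other fibroblasts, and that of Il6 in 66.7 and 9.07%. Free RNA in droplets gives a low share in cells that do not express a gene. In 723 muscle cells (median 6538 UMIs, against 26366.5 in inflammatory fibroblasts) the share was 0.692% for Cxcl1, 0 for Il6 (0 of 723 cells, which allows a share of up to 0.415%), 0.138% for Ptgs2 and 0.830% for Has1. Ptgs2 was detected in 84.4 and 39.4%, and Has1 in 94.3 and 32.5%, of inflammatory and other fibroblasts. In 3066 leukocytes (cells with Ptprc and no Pdgfra, median 11474 UMIs), Cxcl1 was detected in 9.65%, Il6 in 4.37%, Ptgs2 in 13.6% and Has1 in 2.58%. Every share in the other fibroblasts was therefore above that in muscle cells, which were shallower.

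The further markers Ccl2 and Cxcl10 were chosen with earlier results of these data known. Their detection describes the cells and cannot check their name. Ccl2 was detected in 63.4% of inflammatory fibroblasts, 31.0% of the others, 46.5% of leukocytes and 1.11% of muscle cells. For Cxcl10 the shares were 63.6, 31.4, 9.78 and 1.52%. Both markers were thus more often detected in the inflammatory fibroblasts than in the others, in the same cells that the rule chose and that were deeper. The summed level of 9 fibroblast identity genes was 779 UMIs per 10000 in inflammatory and 834 in other fibroblasts, against 9.90 in leukocytes, but Col1a1, Col1a2, Col3a1 and Pdgfra of this list were used to select the cells, and leukocytes were taken without Pdgfra. Of the fibroblast genes that the rule did not use, Dcn stood at 133 against 137 and Dpt at 26.7 against 26.8 UMIs per 10000 in inflammatory and other fibroblasts.

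Genes of other cell types were summed in the inflammatory fibroblasts as well. The 12 leukocyte markers summed to 0.170 UMIs per 10000 in inflammatory fibroblasts, 0.199 in the others and 296 in leukocytes. Ptprc, Cd3e and Cd3g were at 0 in the inflammatory fibroblasts, Ptprc by the rule, and the most abundant marker was Cd74 at 0.0649. The neutrophil markers summed to 0.0198 against 0.0153 in the others and 16.1 in leukocytes, with Retnlg and Ly6g at 0. The keratinocyte markers summed to 0.290 against 0.312, with Krt5, Krt14 and Krt1 at 0 and Krt10 the most abundant, and the muscle markers to 0.286 against 0.627. The median of the muscle markers over libraries was 0.319 in inflammatory and 0.400 in other fibroblasts, whose highest library reached 2.82. The red blood cell genes summed to 6.35 against 6.91 over all cells, led by Hbb-bs, but their median over libraries was 2.40 in inflammatory and 6.66 in other fibroblasts, and the highest library of the inflammatory fibroblasts reached 56.5. The median log2 ratio of this list was -0.72.

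Barcodes were also compared between libraries. Of 23824 distinct barcodes, 164 occurred in more than 1 library. Only 4 inflammatory fibroblasts shared a barcode with a fibroblast of another library, and 0 with an inflammatory fibroblast of another library.

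Fibroblasts could be ordered by how many rule genes they held at 2 or more UMIs: 5537 held none, 3466 held 1, 1882 held 2, 895 held 3 and 339 held 4. Several genes outside the rule followed the same order and others did not. Ccl2 was at 0.673, 2.18, 5.78, 16.4 and 41.7 UMIs per 10000 in these classes. Within libraries, cells with 3 and with 4 rule genes were taken as 1 class. Ccl2 was higher at each step from none to 3 or more genes within 15 of 17 libraries. The step from 3 to 4 genes was not examined within libraries. Nfkbia, the inhibitor of NF-kB that NF-kB itself induces, was at 1.13, 2.43, 5.90, 12.2 and 20.2, and ascended over the same steps in 16 of 17 libraries. Cxcl10 went from 1.10 to 10.9, in order within 12 of 17 libraries, and Zfp36, which encodes an mRNA-destabilizing protein, from 3.57 to 43.4, in order within 16. The median UMI number went up with the class as well, from 19549 to 26697, and its part in these levels was not tested.

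The threshold of the rule fell within this order. Cells with 2 rule genes held 5.25 UMIs of Cxcl1 per 10000 and cells with 3 held 14.4, and their median UMI numbers were 24857.5 and 26212. Pi16 and Dpp4, which mark universal fibroblasts of the fascia and the vessel surroundings, went the other way, from 61.4 to 42.7 and from 8.13 to 6.13 UMIs per 10000 between cells with none and cells with all 4 genes. Dcn, a proteoglycan of all dermal fibroblasts, stayed between 129 and 137. The chemokine gene Ccl11 stood between 5.42 and 6.05 and was higher at each step up to 3 or more genes in 2 of 17 libraries. Cxcl13 was at 3.82 in both end classes (0 of 17 by the same steps), and the complement gene C3 went from 31.7 to 23.3.

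**Figure D2:**
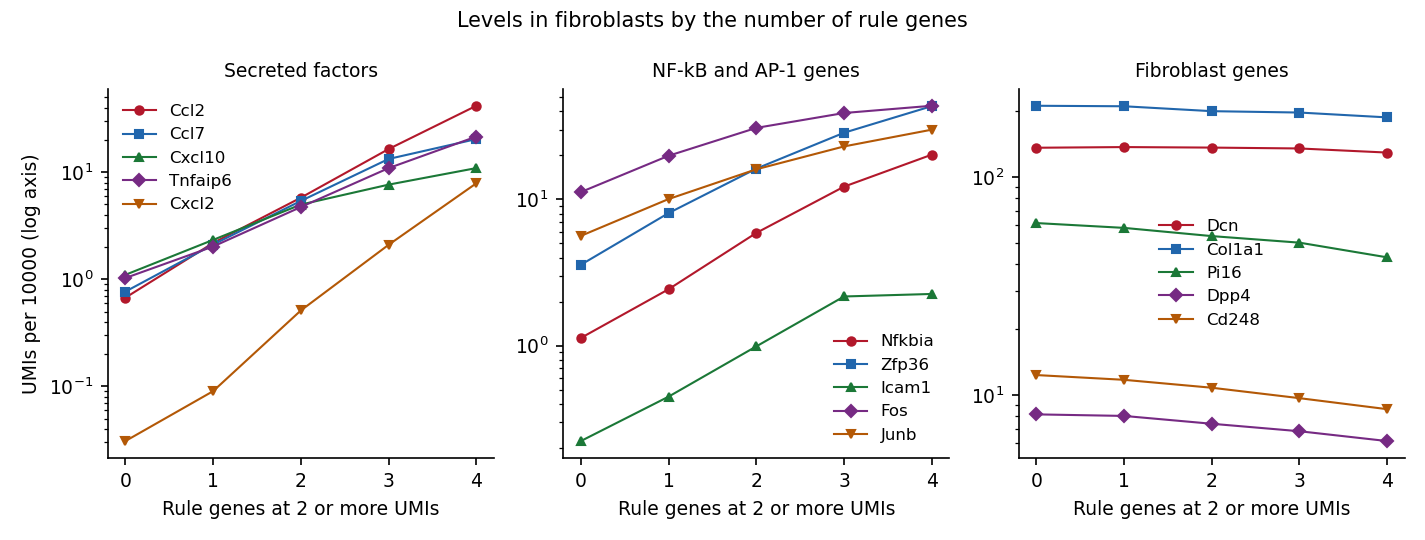
UMIs per 10000 on a log axis (y axis) against the number of rule genes held at 2 or more UMIs (x axis) for genes outside the rule, summed over all fibroblasts of each class. Ccl2 climbed from 0.673 to 41.7 across the 5 classes while Pi16 went from 61.4 to 42.7.

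Within each of the 17 libraries with at least 10 inflammatory fibroblasts (1232 cells), the summed UMIs of inflammatory and other fibroblasts were compared. A gene was called when its fitted ratio reached 2-fold with the same direction in all 17 libraries, which is a description and not a test. Of 12386 genes, 121 (0.977%) were called higher and 3 (0.0242%) lower. The rule used these same cells, so the counts below are read beside these shares and support nothing. The 3 called lower, named after their values were seen, were Nnt, E130102H24Rik and Cd27, each under 0.2 UMIs per 10000 in both classes.

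The 4 rule genes set the scale. Cxcl1 ran from 10.2 (ZT6 replicate 3) through a median of 15.2 to 32.8 UMIs per 10000 (ZT22 replicate 1) in inflammatory fibroblasts, and from 0.572 through 1.39 to 3.25 in the others. Il6 ran from 1.63 (ZT14 replicate 1) through 4.86 to 6.84 (ZT22 replicate 1), against 0.0979, 0.210 and 0.353. For both genes the classes did not overlap, by the rule. Has1 ran from 3.19 (ZT2 replicate 1) through 9.01 to 12.4 (ZT14 replicate 2) against 0.574, 0.968 and 1.55, and Ptgs2 from 2.39 (ZT14 replicate 2) through 5.49 to 9.19 (ZT22 replicate 1) against 0.428, 0.777 and 1.25. The fitted log2 ratios were 4.42 for Il6, 3.72 for Cxcl1, 3.11 for Has1 and 2.85 for Ptgs2.

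Ccl2, Ccl7 and Cxcl10 were the chemokine genes called outside the rule. Ccl2 ran from 7.11 (ZT18 replicate 2) through a median of 19.8 to 53.8 UMIs per 10000 (ZT22 replicate 1) in inflammatory fibroblasts, and from 1.07 through 2.41 to 4.21 in the others. The classes did not overlap, and the log2 ratio was 3.16 (SE 0.22 over 17 libraries). Ccl7, a related monocyte chemokine, ran from 6.41 through 16.2 to 25.97 against 1.18, 1.84 and 3.98, with a log2 ratio of 2.85 (SE 0.14). Cxcl10 ran from 3.99 (ZT10 replicate 3) through 7.42 to 11.9 (ZT22 replicate 1) against 0.831, 2.46 and 3.75, with a log2 ratio of 1.77 (SE 0.13), so its lowest inflammatory library lay just above the highest library of the others. Of 14 chemokine genes, these 3 were called, and the median log2 ratio was 1.76 against -0.02 over all genes. Cxcl2, a neutrophil chemokine like Cxcl1, had a log2 ratio of 4.40 and was higher in 16 of 17 libraries.

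The cytokine and acute-phase counts are read beside the 0.977% of all genes called higher, and a difference from the chemokines was not tested. Of 17 cytokine genes 0 were called and 12 had a log2 ratio above 0. Their median log2 ratio was 0.40, against -0.02 over all genes. Csf2, which encodes a growth factor of granulocytes and macrophages, had 3.73 and was higher in 14 of 17 libraries, and Bmp2 had 1.00 in 15. Of 7 acute-phase genes 0 were called, with a median of -0.13, and the complement genes C3 (-0.31) and Cfb (-0.24) were lower in 17 of 17 libraries, below 2-fold. Ptx3, a long pentraxin that binds microbes and hyaluronan-rich matrix, had the highest ratio among genes outside the rule that reached 1 UMI per 10000 and had the same direction in every library: 3.71 (ZT22 replicate 3) through 6.23 to 17.04 (ZT22 replicate 1) UMIs per 10000 against 0.195, 0.586 and 1.52, with a log2 ratio of 3.53 (SE 0.22).

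Feedback inhibitors and targets of NF-kB formed the next group, with 11 of 22 genes called and a median log2 ratio of 1.36. Nfkbia ran from 9.28 (ZT6 replicate 3) through 13.4 to 23.3 UMIs per 10000 (ZT22 replicate 1) against 1.65, 2.53 and 4.09, without overlap (log2 ratio 2.48, SE 0.11). Tnfaip3, which encodes the inhibitor A20, had a log2 ratio of 2.72 (SE 0.23), Icam1, a leukocyte adhesion molecule, 2.31, Nfkbiz, a nuclear cofactor of NF-kB, 2.29, and the transcription factor gene Irf1 2.12. The subunit genes Rel, Nfkb1 and Nfkb2 were called at 2.00, 1.11 and 1.06, and so were Bcl3, Birc3 and Zc3h12a. Levels of Tnfaip3 and Icam1 overlapped between the classes, since libraries such as ZT6 replicate 3 and ZT2 replicate 2 held 0.821 and 0.487 UMIs per 10000 in inflammatory fibroblasts, while ZT10 replicate 1 held 0.848 and 1.12 in the others.

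Immediate early and AP-1 genes were broadly higher. All 27 had log2 ratios above 0, 12 were called (Atf3, Ccn1, Egr1, Fos, Fosb, Ier5, Jun, Junb, Klf6, Myc, Nr4a1 and Zfp36), and the median was 1.43. Zfp36 ran from 16.5 (ZT14 replicate 1) through 31.1 to 63.5 UMIs per 10000 (ZT6 replicate 2) against 4.77, 7.95 and 12.1, without overlap. Atf3, a stress transcription factor, ran from 3.46 through 13.7 to 27.8 against 2.44, 3.72 and 6.00, with overlap at the low end (ZT14 replicate 1). Summed over the list, the level was 313 UMIs per 10000 in inflammatory fibroblasts, 138 in the others and 176 in leukocytes. Heat-shock genes, which encode chaperones induced by heat and other protein stress, had 4 of 12 called (Bag3, Dnajb1, Hspa8 and Hsph1), a median of 0.77 and a sum of 106 against 66.6. The part of this stress programme in the other results was not tested.

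Of 10 genes listed for STAT3 and C/EBP, 3 were called, with a list median of 0.85. These were Pim1 (log2 ratio 2.24), Socs3 (1.93) and Socs1 (1.99), and activity of STAT3 itself was not measured. Socs3, the inhibitor induced by interleukin-6 family cytokines, ran from 2.00 (ZT14 replicate 1) through 7.46 to 12.6 UMIs per 10000 (ZT6 replicate 2) against 1.34, 1.81 and 2.95. Of 24 cytokine and pattern receptors only Il17ra was called, at 1.03, with a list median of 0.06. Il1rl1, the receptor of interleukin-33, had 2.29 and was higher in 13 of 17 libraries, Osmr had 1.01 in 16 and Il4ra 0.90 in 17. Of 20 interferon-stimulated genes only Cxcl10 was called, and the list median was 0.09. Among inflammatory fibroblasts thinned to 10000 UMIs, the interferon-stimulated genes were summed without Cxcl9 and Cxcl10. They stood at 8.90, 9.97 and 11.5 UMIs per 10000 in the cells with 0, with 1 to 4 and with 5 or more Cxcl10 UMIs. These means pool the cells of all libraries, and the part of differences between libraries was not tested.

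The hyaluronan and matrix genes were divided. Tnfaip6, which encodes a protein that links hyaluronan chains into matrix, ran from 5.73 (ZT18 replicate 2) through 11.5 to 43.4 UMIs per 10000 (ZT6 replicate 2) against 0.988, 1.99 and 5.02, with a log2 ratio of 2.71 (SE 0.16). Ugdh, which makes a precursor of hyaluronan, was called at 1.07, and these were 2 of 8 genes in the list, with a median of 0.97. Has2 had 0.87 in 17 of 17 libraries and the hyaluronan receptor gene Cd44 1.79 in 16. Of 20 proteases and their inhibitors only Adamts4, an aggrecanase, was called (3.33). Its level was low, at 0.0997 and 0.134 UMIs per 10000 in cells with 3 and with 4 rule genes. Of 28 matrix genes 0 were called, with a median of 0.01. Of 11 other prostaglandin genes 0 were called, with a median of 0.14, and Ptges, the synthase that acts after cyclooxygenase, had 0.26.

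Mt1, Mt2, Hk2, Ifrd1 and Csrnp1 were the remaining genes among the 20 highest ratios. Mt1, a metal-binding protein induced by glucocorticoids and metals, ran from 29.7 (ZT2 replicate 3) through 52.5 to 113 UMIs per 10000 (ZT6 replicate 2) against 7.59, 10.7 and 27.0, and Mt2 from 13.5 through 19.3 to 56.0 against 2.76, 4.46 and 17.2. The classes overlapped for Csrnp1 and for Mt2, the latter through ZT14 replicate 1, which was the highest library in both classes. Mt1 and Mt2 were the 2 called of 11 glucocorticoid targets, with a list median of 0.31. Hk2, which encodes a hexokinase of glycolysis, had a log2 ratio of 2.09, Ifrd1 2.21 and Csrnp1 2.43.

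No gene at 1 or more UMIs per 10000 was called lower, so the genes with the lowest ratios were all within 2-fold. Igfbp4, which binds insulin-like growth factors, ran from 3.89 (ZT6 replicate 2) through 11.7 to 16.5 UMIs per 10000 in inflammatory fibroblasts and from 10.6 through 16.2 to 20.4 in the others (log2 ratio -0.40). Pkd2, a calcium channel gene, ran from 0.664 through 0.956 to 1.20 against 1.19, 1.36 and 1.53 (-0.42), so that the classes met at about 1.2. The others were AY036118 (-0.63), Abca8a (-0.45), Man2a1 (-0.40), Txnip (-0.38), Ntrk2 (-0.36), Gm42418 (-0.36), Gm26771 (-0.35) and Oip5os1 (-0.34). AY036118 and Gm42418 lie in the ribosomal RNA repeat, and against other fibroblasts of matched depth their log2 ratios were -0.06 and 0.11.

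Markers of the fibroblast subtypes of skin were not among the called genes. Of 11 markers of Pi16 universal fibroblasts 0 were called, with a median log2 ratio of -0.20. Pi16 itself (-0.32) was lower in 16 of 17 libraries, and Cd248 (-0.28), Dpp4 (-0.25) and Emilin2 (-0.23) were lower in 17. The list medians were -0.01 for 5 markers of Sult1e1 cells, 0.22 for 5 of Cxcl14 cells, 0.45 for 2 of Cthrc1 cells, 0.25 for 3 of Krtdap cells and -0.77 for 3 of Cilp cells, with 0 genes called in each. Some of these medians turned sign at equal depth: against other fibroblasts of matched depth and after thinning, that of the Cilp markers was 0.13 and -0.29, that of the Cthrc1 markers -0.05 and 0.66, and that of the Sult1e1 markers 0.10 and 0.05. Of 18 clock genes, 2 were called: Bhlhe40 (1.68), a repressor also induced by many stimuli, and Nfil3 (1.34). Per3 (-0.62) was lower in 17 of 17 libraries, below 2-fold.

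**Figure D3:**
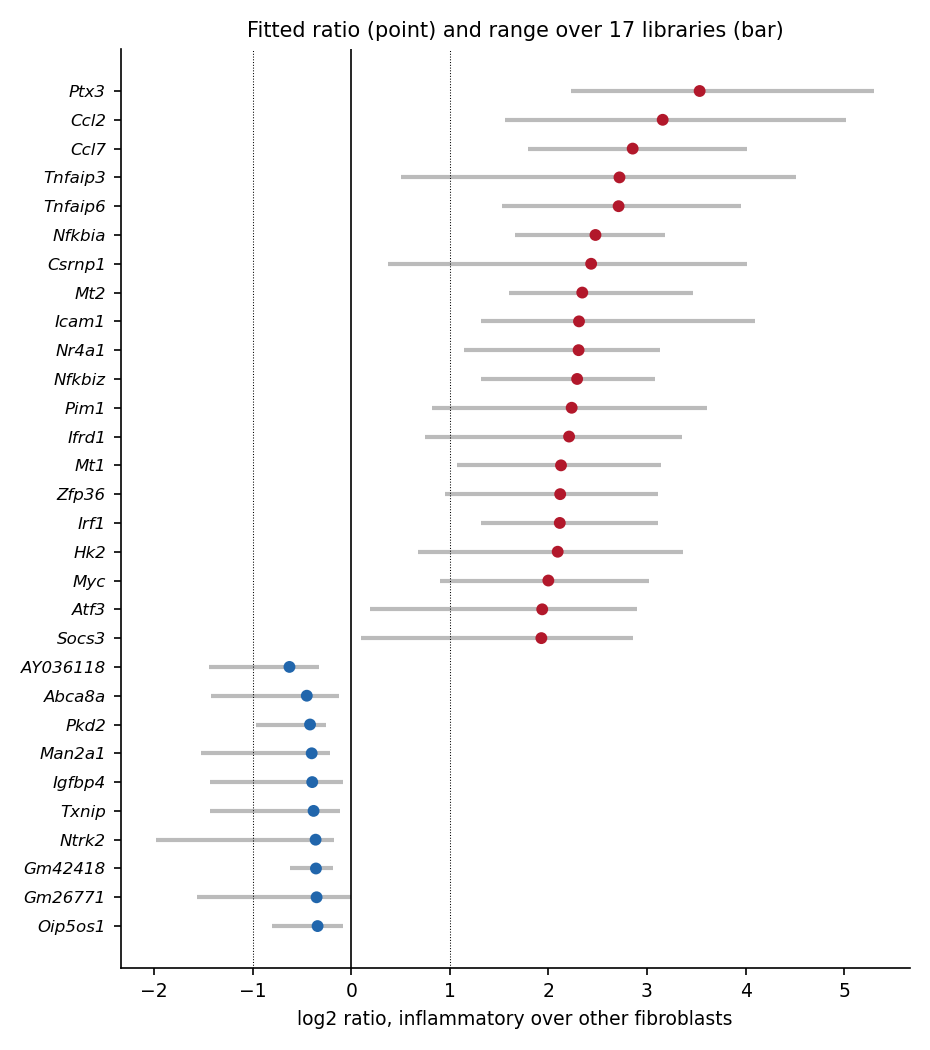
Fitted log2 ratio of inflammatory over other fibroblasts for the 20 genes with the highest and the 10 with the lowest ratios (points) among genes outside the rule that reached 1 UMI per 10000 and had the same direction in all 17 libraries, with the range of single-library ratios over 17 libraries (bars) and dotted lines at 2-fold. Ptx3 at 3.53 and Ccl2 at 3.16 lay farthest to the right of the genes plotted, and no point lay left of the lower 2-fold line.

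**Figure D4:**
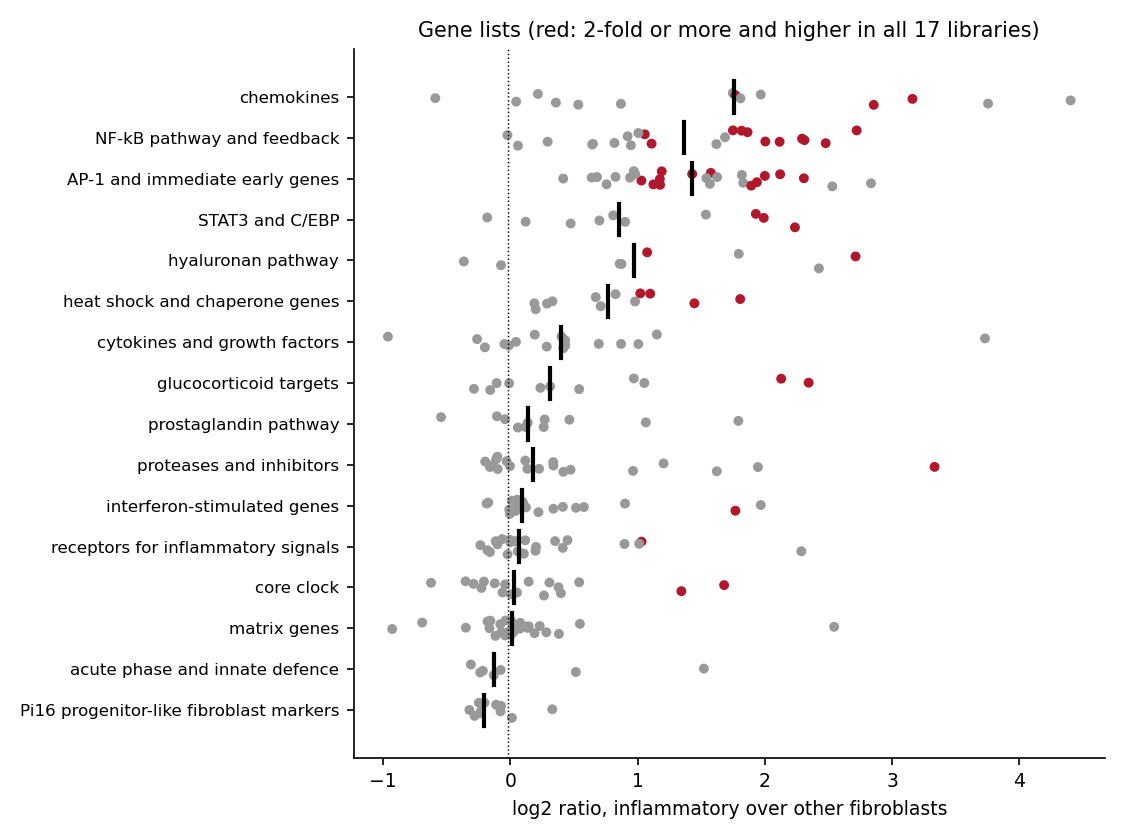
Fitted log2 ratio of inflammatory over other fibroblasts (x axis) for each gene (points) of the gene lists (y axis), with genes 2-fold or more and higher in all 17 libraries in red, list medians as black bars and the median of all 12386 genes as a dotted line. The NF-kB, AP-1 and chemokine lists lay to the right with medians of 1.36, 1.43 and 1.76, and the matrix and receptor lists were centred near 0.

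The ratios were also taken at equal depth. Against other fibroblasts of matched depth, 93 genes were called higher, and after thinning to 10000 UMIs 160 were. The list medians of the NF-kB genes were 1.12 and 1.42 in these comparisons, those of the AP-1 genes 1.33 and 1.43, and those of the chemokines 1.14 and 2.08. The kappaB letters described for Cxcl1, Il6 and Cxcl10 were found in the promoters of 20 of the 89 called genes that the promoter table held (22.5%), against 10.6% of the genes tested and 7.25% of all promoters. AP-1 letters were found in 12.4% of the called genes (11 genes) and 5.50% of the genes tested, CRE letters in 5.62 and 2.98%, and ISRE letters in 5.62 and 3.19%. The E-box (CACGTG) and the D-box were searched as well. E-box letters were found in 12.4 and 9.77%, and D-box letters in 0 and 1.23%. These shares are descriptions, since the called genes were chosen from the same cells.

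The inflammatory fibroblasts were uneven among themselves. After thinning, the 10% of cells with the most UMIs of a gene held 71.4% of all Ccl2 UMIs, 63.0% of Il6, 52.8% of Cxcl10, 52.0% of Cxcl1, 49.9% of Ptgs2 and 43.1% of Has1. The same measure was 22.8% for Pi16 and 22.5% for Dpp4. Tnfaip6 lay between, at 56.5%. For Cxcl2 the measure was 99.2%. Without thinning, the gene was detected in 202 inflammatory fibroblasts (16.4%), 4.36% of the others, 34.2% of leukocytes and 1.11% of muscle cells.

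Time of day was tested first in all fibroblasts together, where the rule does not select on the genes. In the quasi-likelihood fit of edgeR, with 24 h cosine and sine terms on the UMIs of each library's fibroblasts, 1697 of 12386 genes (13.7%) were rhythmic at an adjusted p under 0.05, among them 17 of 18 clock genes. None of the 4 rule genes and neither further marker was called. The adjusted p was 0.797 for Cxcl1, 0.619 for Il6, 0.691 for Ptgs2, 0.987 for Has1, 0.971 for Ccl2 and 0.474 for Cxcl10, and none was called in any of the 22 alternatives. Il6 stood at 0.712 ± 0.101 UMIs per 10000 at ZT2, 0.662 ± 0.175 at ZT6, 1.03 ± 0.377 at ZT10, 0.498 ± 0.253 at ZT14, 0.512 ± 0.241 at ZT18 and 0.808 ± 0.546 at ZT22 (SD, n = 3 mice). The SD at ZT22, where the mice ran from 0.437 to 1.43, was wider than the difference between the highest and the lowest mean. Ccl2 at ZT22 ran from 3.13 to 12.1 UMIs per 10000, which covered the means of all other times except ZT18 (2.50).

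The gene lists are read beside the 13.7% of all genes that were rhythmic in all fibroblasts. Of 21 NF-kB genes, Rela, a subunit gene, was called (adjusted p = 0.00970), and of 13 chemokine genes Ccl11, an eosinophil chemokine. Of 27 AP-1 and immediate early genes, Ccn2, Ier3, Klf4, Klf6 and Myc were called, and of 18 cytokine genes Fgf2, Il33, Il34, Tgfb1 and Vegfa. Of 12 prostaglandin genes, Hpgd, Ptges, Ptgfr and Ptgis were called, which act in the breakdown, synthesis and sensing of prostaglandins, and of 24 receptors, Ifngr1, Ifngr2, Il18r1, Il1r1, Il6ra, Lifr and Osmr. Several of these calls were near the threshold: of 22 alternatives, Il34 was called in 8, Osmr in 11, Klf6 in 14, Il33 and Lifr in 15, Il6ra in 18, Ifngr1 in 20, and Rela and Ccn2 in 21. The matrix list had 8 of 28 called. The hyaluronan, interferon-stimulated and heat-shock lists had 0 of 8, 0 of 20 and 0 of 12 called by edgeR, with 3, 1 and 3 genes at an unadjusted p under 0.05, and DESeq2 called 0, 1 (Ifit2) and 1 (Hspd1). With the replicate block, Cd44 of the hyaluronan list was called (adjusted p = 0.0476 by edgeR).

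Clock genes were rhythmic in the inflammatory fibroblasts. Dbp, an output gene of the clock, stood at 2.05 ± 0.0646 UMIs per 10000 at ZT10 and at 0.0591 ± 0.00719 at ZT22 (SD, n = 3 mice), and in the other fibroblasts at 2.41 ± 0.155 and 0.0604 ± 0.00260. The ranges of ZT10 and ZT22 were far apart in both classes, and the adjusted p of Dbp in the inflammatory fibroblasts was 9.89e-07 (edgeR's quasi-likelihood test, fitted peak ZT9.78). Arntl, which encodes the activator BMAL1, was opposite in phase, at 0.413 ± 0.0261 at ZT22 and 0.0226 ± 0.0149 at ZT10 (adjusted p = 1.22e-06 by the same edgeR test, peak ZT22.5).

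In all, 67 of 9684 genes (0.692%) were rhythmic in the inflammatory fibroblasts over 17 libraries, with 14 of 17 clock genes among them. The genes used to select the cells were not taken out of this test or its adjustment, and no rhythm is given for them. The 10 with the smallest adjusted p were Dbp, Arntl, Per3, Tspan4, Tef, Nfil3, Nr1d2, Nr1d1, Bhlhe41 and Col8a1. Tspan4, a tetraspanin gene outside the core clock, peaked at ZT12.1 with a peak-to-trough difference of 1.90 on the log2 scale, and it was also among the 10 with the smallest adjusted p in all fibroblasts, with Dgat2, Arntl, Nfil3, Dbp, Nr1d2, Leo1, Mamstr, Por and Npas2. Col8a1, a short-chain collagen gene, rested on few cells: 35 inflammatory fibroblasts of 10 libraries held its 358 UMIs, and 4 of them held 50%. The NF-kB, AP-1 and chemokine lists had 0 of 21, 0 of 24 and 0 of 13 genes called by edgeR, with 1, 5 and 6 at an unadjusted p under 0.05, and DESeq2 called 0, 1 (Ier2) and 0. With the replicate block, the chemokine gene Cxcl3 was called (adjusted p = 0.00321 by edgeR). The receptors had Ifngr1 and Il18r1 of 24, and the matrix list Col12a1, Fbln2 and Fbn1 of 27. Of 23 alternatives, Ifngr1 and Fbln2 were called in 6 each and Col12a1 in 21, and with the replicate block the adjusted p by edgeR was 0.0706 for Ifngr1 and 0.0523 for Fbln2. Ccl2 and Cxcl10, which the rule did not use, had adjusted p = 0.965 and 0.520 by the edgeR test.

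A difference in rhythm between inflammatory and other fibroblasts was tested directly, with each library as a block. The genes used to select the cells were not taken out of this test or its adjustment, and nothing is read from it for them. Of 12394 genes, 0 (0%) passed edgeR's quasi-likelihood test of the interaction at an adjusted p under 0.05, 364 had an unadjusted p under 0.05, and DESeq2 called 1, which was Col8a1, named after its values were seen. The smaller number of rhythmic genes in the inflammatory fibroblasts, which were summed over 1232 cells, is therefore not shown to be a difference in rhythm.

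**Figure D5:**
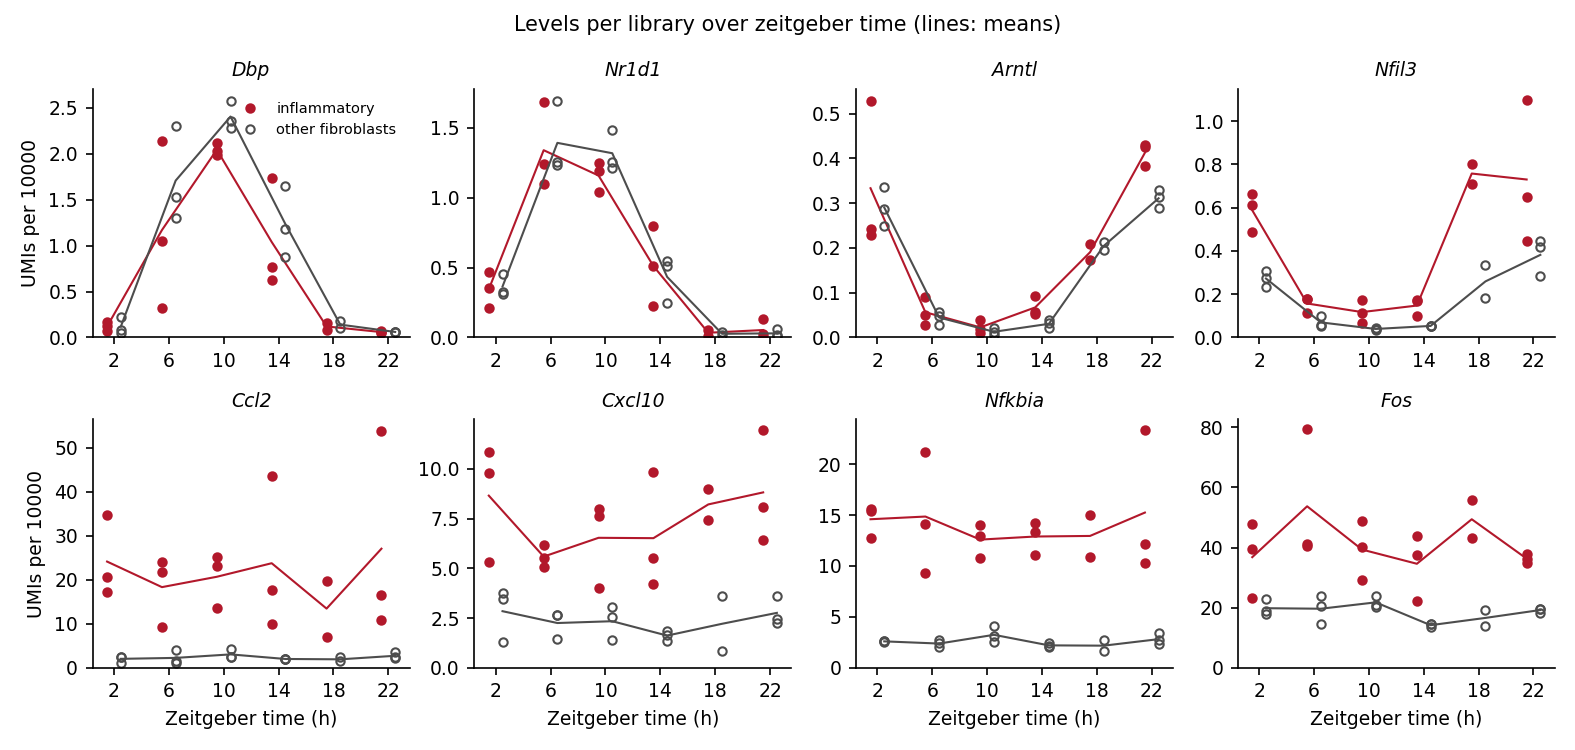
UMIs per 10000 (y axis) against zeitgeber time in hours (x axis) for the clock genes Dbp, Nr1d1, Arntl and Nfil3 and for Ccl2, Cxcl10, Nfkbia and Fos, with 1 point per library with at least 10 inflammatory fibroblasts and lines through the means, for inflammatory (filled) and other (open) fibroblasts. Dbp and Arntl swung with time in both classes, with Dbp at 2.05 at ZT10 and 0.0591 at ZT22 in inflammatory fibroblasts, while the mice of each time were spread widely for Ccl2.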

How the data were processed

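Droplet-based (10x Genomics) libraries of sorted dermal cells were sequenced for 18 mice. The deposited files hold UMI counts per gene and barcode, which the authors made with Cell Ranger 3.1.0 on the mouse reference mm10 and which are not normalized. Whether doublets were removed is not given in the sources used here, and no doublet caller was run. Zeitgeber time and replicate number were taken from the labels. Members and gene lists were chosen with earlier results of these data known. Cells were filtered and selected as described at the opening of the results, and UMIs were summed per library and class. Libraries held 4850221 to 40827442 UMIs, and a library with few inflammatory fibroblasts gives imprecise levels, so sums of under 10 such cells were left out, which removed ZT18 replicate 1 from those comparisons.

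Ratios and 24 h cosine terms were fitted with edgeR 4.0.16 in R 4.3.3 (TMM normalization, filterByExpr, quasi-likelihood F test, Benjamini-Hochberg adjustment over all genes tested, threshold 0.05), with DESeq2 1.42.0 as an alternative. Correlations (two-sided) and differences in share (upper tail of the statistic) were tested by permutation with 100000 draws in Python 3.11.15 (scipy 1.17.1). UMIs per 10000 are a gene's share of the summed UMIs of a class. Named genes were the 4 rule genes, Ccl2 and Cxcl10, the 20 highest and 10 lowest fitted ratios among genes at 1 or more UMIs per 10000 with the same direction in every library, the 10 smallest adjusted p of each rhythm test, and examples from each gene list. The fits across genes and the share tests were tested on simulated data.

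Replicate number marks the day of collection by the labels' hours. Deviations from the time means correlated within numbers 1, 2 and 3 with a median r of 0.08, -0.01 and 0.06 over pairs of libraries, and with -0.03 between numbers.

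Where cells were compared with leukocytes or muscle cells, these were barcodes with Ptprc and no Pdgfra, and barcodes with 20 or more UMIs of Acta1 and Ckm together without Pdgfra and Ptprc. Cell Ranger leaves out reads that map to several genes, so levels of near-identical copies such as Hspa1a and Hspa1b are uncertain.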

Additional observations from a re-analysis of the deposited data

How the results depend on the processing

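The tests of the share over time stayed above 0.05 in every alternative run. The log2 ratios of Ccl2, Cxcl10, the 20 highest and the 10 lowest genes kept their sign except where given here, and the 10 rhythm calls named in all and in inflammatory fibroblasts stayed under the threshold. The r of the share with median UMIs per fibroblast, near 0, was 0.0240 with a replicate block and -0.201 to 0.148 without each library in turn. The r with the rule-gene level in leukocytes was -0.602 to 0.157 without each library in turn, the highest value without ZT18 replicate 1. Rhythmic genes in all fibroblasts numbered 1079 with zeitgeber time as 6 levels, 2372 by DESeq2, 1769 with the replicate block and 1234 to 1868 without each library, against 1697. In inflammatory fibroblasts they numbered 232 without a filter on low counts, 37 with 6 levels, 241 by DESeq2, 74 with the replicate block and 48 to 108 without each library (108 without ZT14 replicate 1), against 67. The interaction called 27 genes without a filter, 1 by DESeq2 (Col8a1), 1 with at least 20 inflammatory fibroblasts per library (Ackr3) and 0 to 2 without each library (Ackr3 without ZT6 replicate 2, Col8a1 without ZT10 replicate 1, Col8a1 and Thbs4 without ZT14 replicate 1), against 0. Genes called higher numbered 834 without a filter and 116 to 141 without each library, against 121. Those called lower numbered 1 after thinning, 0 at matched depth and 1 to 5 without each library (1 without ZT2 replicate 3, 5 without ZT10 replicate 1), against 3. Gm42418 turned to 0.11 and AY036118 moved to -0.06 at matched depth. The replicate block ended no call of a gene named as rhythmic other than Ifngr1 and Fbln2 in inflammatory fibroblasts. The cause of these differences was not tested. Levels of libraries with few cells are imprecise: ZT6 replicate 2 held 11 inflammatory fibroblasts.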

Other observations

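A small number of inflammatory fibroblasts carried nearly all Cxcl2, a neutrophil chemokine that the rule did not use. These cells were chosen after the values were seen, and the following is a description without a test. Cxcl2 was present at 10 or more UMIs in 108 inflammatory fibroblasts (8.75%), which held 98.4% of all Cxcl2 UMIs of the class, with a median of 77 and a maximum of 552 UMIs per cell. They came from 16 libraries, 31 of them from ZT22 replicate 1, and 64 of the other fibroblasts (0.588%) reached the same number. Their median UMI number was 28096, against 26186.5 in the remaining inflammatory fibroblasts.

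In the Cxcl2-rich cells Ccl2 stood at 84.3 UMIs per 10000 against 16.9 in the remaining inflammatory fibroblasts, Ccl7 at 45.6 against 12.0 and Cxcl1 at 56.0 against 15.4. Icam1 was at 6.72 against 1.70, Tnfaip3 at 7.33 against 2.13, Ptx3 at 18.7 against 6.05 and Cd44 at 3.61 against 0.732, each higher in at least 6 of the 7 libraries with at least 5 such cells. Feedback inhibitors did not all share this direction: Nfkbia was at 26.8 against 13.1 (higher in 6 of 7), but Socs3 was at 5.80 against 7.89 (lower in 6 of 7). Csf2 was at 1.26 against 0.139, and higher in 5 of the 7 libraries. Cxcl5, at 1.32 against 0.0428, was higher in 1 of the 7 libraries, and Cxcl3, at 0.722 against 0.178, in 4. Cxcl10 was at 7.78 against 8.65 (lower in 6 of 7) and Ccl11 at 4.55 against 6.02 (lower in 5 of 7). The rule genes Il6, at 8.23 against 4.18, and Ptgs2, at 9.29 against 5.61, were each higher in 4 of 7. Has1, at 10.9 against 8.69, was higher in 5 of 7. All 4 rule genes were present in 50.9% of Cxcl2-rich cells and 25.2% of the remaining ones. Immediate early genes were divided, with Fos at 21.5 against 42.3 (lower in 7 of 7) and Jun at 22.55 against 34.7 (lower in 6), but Fosl1 at 0.722 against 0.141, Ier5 at 5.54 against 2.45 and Myc at 2.51 against 1.37 (each higher in 7 of 7). Pi16 was at 25.5 against 50.3, Sfrp2 at 6.34 against 15.6, Igfbp4 at 5.97 against 13.2 (lower in 7 of 7 libraries) and Hspa1a at 8.81 against 17.6 UMIs per 10000. Other fibroblast genes were divided. Cthrc1, at 2.14 against 0.576, was higher in 6 of 7 libraries. Tnmd, at 1.04 against 0.300, and the collagen gene Col1a1, at 336 against 179, were each higher in 5 of 7. Dcn, at 118 against 135, and the matrix gene Fn1, at 31.3 against 49.9, were lower in 7 of 7. Pdgfra and Thy1 were each lower in 5 of 7, while Col3a1 and Dpt were each higher in 4 and lower in 3.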
